A study of Drosophila melanogaster with 120 samples.

Results

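The 93 transcripts described here stood high in the abdomens of 1-day-old female flies and much lower in abdomens of every later age sampled, while their level in heads changed little. They were chosen by measured values. For each tissue a difference D was taken as the median log2 intensity of the 48 arrays of days 5, 15, 30 and 50 minus the median of the 12 arrays of day 1, and a member had a D of -2.5 or lower in abdomen and an absolute D under 0.5 in head. Of the 16637 transcripts on the array, 318 reached the abdominal threshold. A further 215 of these also fell in head, with a D of -0.5 or lower, and 10 had a head D of 0.5 or higher, which left the 93 members.

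The flies were unmated Drosophila melanogaster females from 6 laboratory populations kept at 25 °C, derived from wild-caught flies. The labels give no genotype beyond the population. In the 3 selection populations mating had been delayed to 28 and later 40 days of age to lengthen the reproductive lifespan, and in the 3 control populations mating took place at 14 days. After 35 generations, heads and abdomens were profiled on days 1, 5, 15, 30 and 50 of adult life with 2 biological replicates of each population, on 120 single-dye (Cy3) NimbleGen arrays, which gives 6 arrays in each of 20 groups. The population is the unit that was selected, so errors below are standard deviations (SD) over populations unless stated. RNA was extracted from heads and abdomens, so fewer cells of a type and less RNA per cell cannot be told apart.

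An adult fly emerges from its pupal case unfinished. In the first days of adult life the cuticle hardens and darkens, leftover larval fat body cells in the abdomen are used up and replaced by adult fat body, and in females the ovary, which fills much of the abdomen, begins to mature eggs. The head holds the brain, the eyes and a smaller share of fat body, muscle and cuticle, and no ovary. The transcripts on this array carry FlyBase transcript numbers, and none of the 93 members was joined to a gene by the RefSeq gene table used here, which named 44 of the array's transcripts. The members are therefore given by transcript number, without a gene, a function or a position, and the tissue labels were not checked through marker genes. Among the 93 numbers there were 3 pairs of consecutive ones, which made 90 separate runs.

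A few arrays went against their labels or stood between ages. A day-1 score was set to 0 for the profile of days 5 to 50 and 1 for that of day 1, and was built on 200 transcripts each way chosen in populations of the other numbers. Both day-1 abdomens of control population 1 scored 0.546 and 0.535, and its day-1 heads 0.468 and 0.455, where the other day-1 abdomens reached up to 1.04. Another 5 heads had the profile of the opposite age class, namely 1 head of day 50 (control population 2), 2 of day 30 (selection population 3 and control population 3) and the 2 of day 1 from control population 3. These 9 arrays are kept in the values below unless stated. Over the 60 abdomens the array median over all transcripts lay between 9.92 and 10.4, and over the 60 heads between 9.45 and 10.03.

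The fall was large and early. The member median, taken over the 93 transcripts in each population, was 12.52 ± 0.456 (SD, n = 6 populations) in abdomens of day 1 and 9.74 ± 0.177 on day 5. It then stood at 9.52 ± 0.142 on day 15, 9.44 ± 0.151 on day 30 and 9.55 ± 0.223 on day 50. Every population dropped between day 1 and day 5, and no population came back to its day-1 level. In heads the same median stayed between 11.09 ± 0.129 on day 5 and 11.40 ± 0.176 on day 50, with 11.27 ± 0.187 on day 1. The median over all transcripts moved between 10.27 and 10.34 in abdomens over the 5 ages. These values follow from the rule that picked the members and are a description without a test.

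**Figure D1:**
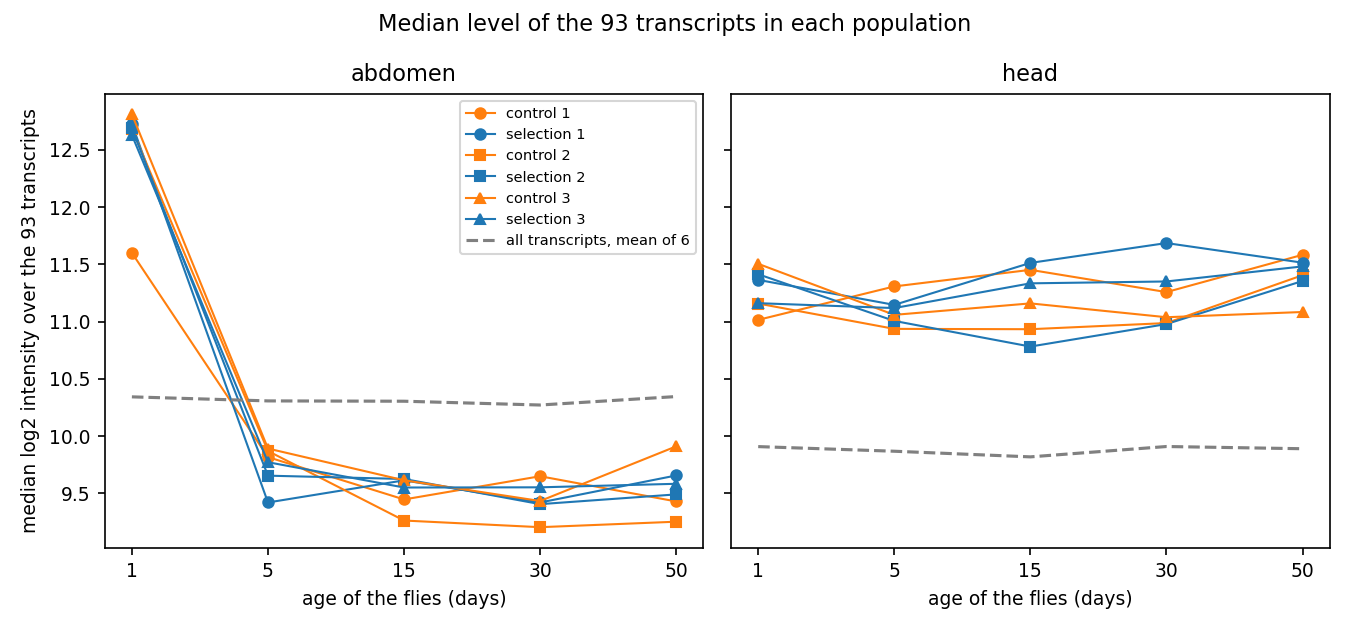
Median log2 intensity over the 93 transcripts (vertical axis) by age in days (horizontal axis, evenly spaced ages) in abdomens and heads. Each line is 1 population (mean of 2 biological replicates) and the dashed line is the median over all transcripts, averaged over the 6 populations; control population 1 stood at 11.6 on day 1 in abdomen and the other 5 between 12.63 and 12.81.

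Within the members, D in abdomen ran from -6.50 to -2.5048 with a median of -2.84, beside 0.0247 for the median of all transcripts. A total of 34 members had a D of -3 or lower and 8 of -4 or lower. Just inside the abdominal threshold lay FBtr0075385 at -2.5048, FBtr0112768 at -2.51 and FBtr0081435 at -2.51. Just outside it lay FBtr0070978 at -2.49, FBtr0077792 at -2.46 and FBtr0081564 at -2.45. On the head side, FBtr0084729 at -0.49, FBtr0083888 at -0.49 and FBtr0087044 at -0.47 were just inside, and FBtr0086713 at 0.52, FBtr0085307 at -0.52 and FBtr0089859 at 0.53 just outside. Both thresholds cut through a continuous range of values. In 58 members the lowest day-1 abdomen stood above the highest of the 48 later ones, and in 81 without the 9 arrays of doubtful age. The rule used this contrast, and no such count is given over all transcripts, so this count carries no weight as evidence.

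The 8 members with the lowest D differed chiefly in what the head showed. FBtr0080350 had a lowest, median and highest log2 intensity of 13.29, 14.60 and 14.92 in the 12 abdomens of day 1 and 7.76, 8.09 and 10.26 in the 48 later ones. In heads FBtr0080350 lay at 7.69 after day 1, close to the bottom of the array's range, which starts at 7.01. Its abdominal fall thus ended near the level that the head held at every age.

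FBtr0075369 started at nearly the same height and ended on the opposite side of the head. Its lowest, median and highest values were 14.65, 14.85 and 15.03 in day-1 abdomens and 8.04, 8.69 and 12.12 in later ones. In heads FBtr0075369 had a median of 15.29 on day 1 and 14.91 afterwards, the highest head level of all members. FBtr0071389 behaved likewise, with medians of 14.13 in abdomens of day 1 and 8.33 later, against 14.22 and 14.04 in heads. Its day-1 abdomens reached down to 10.38, in control population 1. These 2 transcripts went from levels shared by both tissues to a signal that was strong in head and weak in abdomen.

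FBtr0082143, FBtr0073928 and FBtr0083331 resembled FBtr0080350. FBtr0082143 had medians of 14.68 and 9.30 in day-1 and later abdomens and 7.82 and 7.80 in heads, so that it remained above head after the fall. FBtr0073928 fell from 13.73 to 8.68 beside 8.51 and 8.20 in heads. FBtr0083331 fell from 12.95 to 8.05 beside 7.66 and 7.56 in heads, and its lowest day-1 abdomen was 9.21. The last members of the 8 were FBtr0080691, with 13.87 and 8.83 in abdomens and 9.62 and 9.48 in heads, and FBtr0077549, with 12.71 and 8.44 against 11.32 and 11.10. In none of the 8 did a later abdomen reach the lowest day-1 abdomen.

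**Figure D2:**
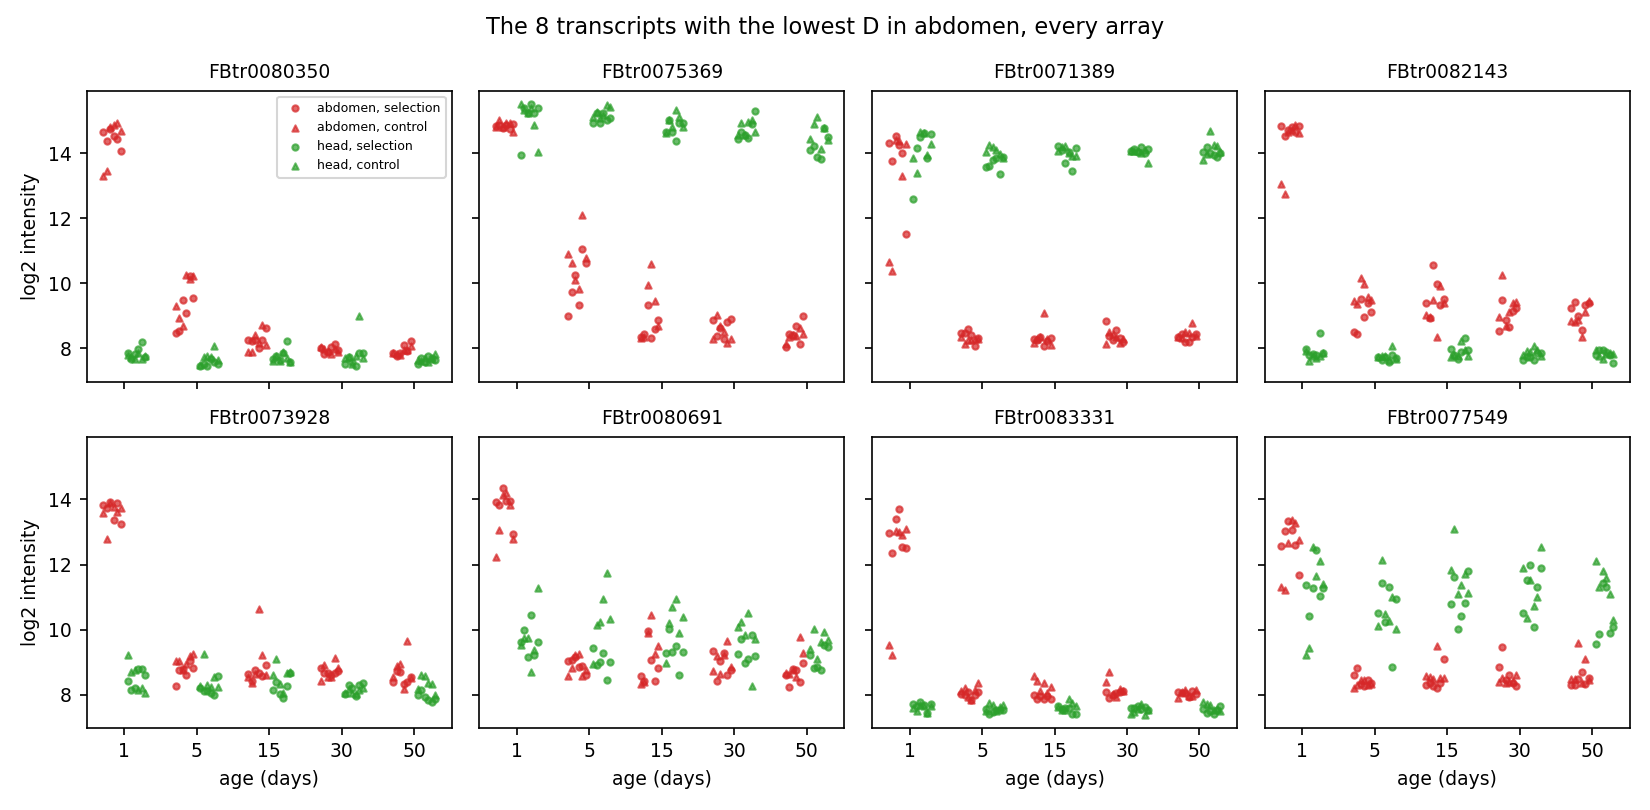
Log2 intensity (vertical axis) of the 8 transcripts with the lowest D in abdomen, by age in days (horizontal axis). Each point is 1 array, circles are selection and triangles control populations, red is abdomen and green is head; FBtr0075369 and FBtr0071389 stay above 12 in all heads while their abdomens drop, and in FBtr0080350 and FBtr0083331 the abdomens drop to near the head level.

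Across all 93, head level set apart members whose head signal lay near the bottom of the scale from those with a strong signal in head. Signal on an array depends on the probes as well as on abundance, so the classes below place a transcript on the array's scale only. By their median over the 60 heads, 41 members lay at or above the upper quartile of all transcripts (11.68), 34 between the quartiles and 18 at or below the lower quartile (8.16). That is 44.1% of members in the highest class and 19.4% in the lowest, where 25.0% of all transcripts lie in each by definition. Of the other 225 transcripts past the abdominal threshold, 41 lay in the highest class and 17 in the lowest. Beside those, members were the more frequent in both classes. The lowest head levels were those of FBtr0112399 at 7.43, FBtr0083331 at 7.57 and FBtr0091451 at 7.60, and the highest those of FBtr0075369 at 14.93, FBtr0112420 at 14.10 and FBtr0071389 at 14.05. For the 18 members at the bottom of the head scale, a small head D says little, since the signal there had little room to fall.

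The 41 members with a high head signal were about level between the tissues on day 1. In 34 of them the day-1 medians of abdomen and head were within 1 log2 unit, in 5 abdomen was higher and in 2 lower by at least that much. After day 1, abdomen was lower than head by at least 1 in 40 of the 41, and within 1 in the remaining member, FBtr0076453. The median of abdomen minus head over the 41 was then -2.40 log2 units. The 18 members with a low head signal were all higher in abdomen on day 1, by 3.00 to 6.85, but the rule fixed this order. Their day-1 head medians were at most 8.15, and no transcript on the array had a later abdomen median under 7.45. A fall past the abdominal threshold must then start more than 1 above such heads. The day-1 order of the 18 is therefore no evidence of a contrast, and it enters the day-1 count over all members below. Afterwards 9 of the 18 were within 1 of head and 9 were still higher. Of the 34 in the middle, 31 were higher in abdomen on day 1, and later 13 were lower, 19 within 1 and 2 higher.

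Over all members, 54 (58.1%) were higher in abdomen than in head by at least 1 on day 1, beside 18.1% of all transcripts. After day 1 this had turned, with 53 (57.0%) lower in abdomen, beside 12.0% of all transcripts, 29 within 1 and 11 higher. Counts between tissues moved with the normalization. With median centring of the arrays, 45 members were higher in abdomen on day 1, and later 59 were lower and 25 within 1. The fall in abdomen was part of the rule, and these counts describe where it ended. It ended on scale with most transcripts. Among levels of all transcripts in later abdomens, 84 members lay between the quartiles (8.27 and 12.35), 9 at or below the lower one and 0 at or above the upper one, where 60 had been on day 1. Most members thus dropped in signal without reaching the bottom of the scale.

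**Figure D3:**
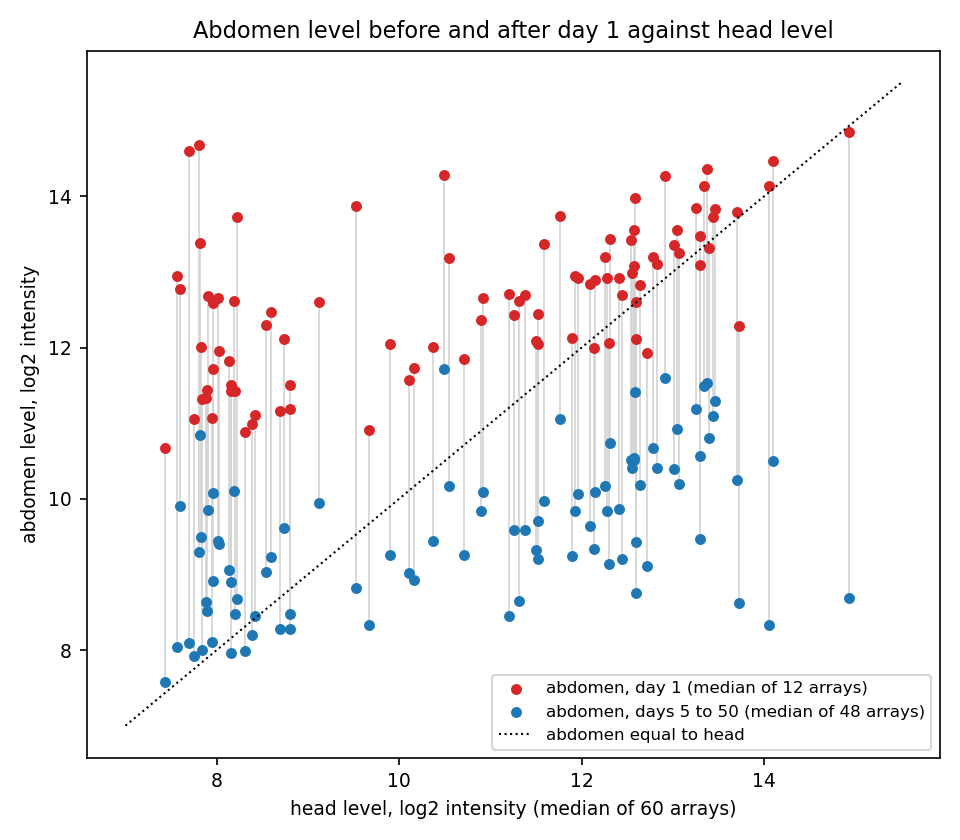
Abdomen level (vertical axis) against head level (horizontal axis), both log2 intensity, for the 93 transcripts. Red points are abdomens of day 1, blue points abdomens of days 5 to 50, a grey line joins the points of 1 transcript and the dotted line marks equal levels; 54 red points lie at least 1 unit above equality with head on day 1 and 53 blue points at least 1 unit below it afterwards.

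Within the limits the rule set, D in head was below 0 in 62 of 93 members (66.7%, beside 47.7% of all transcripts), with a median of -0.0719. It was below 0 in 33 of the 41 members with a high head signal (median -0.23), in 14 of the 18 with a low one (median -0.0516) and in 15 of the 34 between (median 0.0574). The rule used head D, so these counts are a description. Without the 9 arrays of doubtful age, head D ran from -0.79 to 0.60. It reached -0.5 or lower in 15 members, 12 of them with a high head signal, and 0.5 or higher in 2. With those arrays set aside in both tissues, 81 transcripts met the rule, of which 74 were members. A total of 17 members thus passed the head threshold only with those arrays included.

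Most of the drop was over by day 5. In 66 members at least 90% of the difference between day 1 and day 50 was complete on day 5, in 26 between 50% and 90%, and in FBtr0077060 43.4%. It was at least 90% in 28 of the 41 members with a high head signal, 25 of the 34 in the middle and 13 of the 18 with a low one. FBtr0080350 had completed 77.3% on day 5 and FBtr0075369 69.7%, while the other 6 of the 8 members with the lowest D had completed 94.5% or more. Shares above 100%, up to 186% in FBtr0112420, belong to members whose mean was lower on day 5 than on day 50.

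The order of the days after day 1 was not used by the rule and was tested. The rule did use the same later arrays and picked large falls in abdomen. A fall still under way after day 5 can be part of the fall that was picked. Shares of all transcripts are therefore no independent yardstick for falls in abdomen, or for head minus abdomen, which contains them. No such count is given for the other 225 transcripts past the abdominal threshold. Each transcript was fitted with limma over the 24 averages of days 5 to 50 of a tissue, with population as a block, and p-values were adjusted (Benjamini-Hochberg) over all 16637 transcripts, with an adjusted p of 0.05 as threshold. From day 5 to day 50 in abdomens, 11 of the 93 members (11.8%) changed, beside 1.11% of all transcripts. Of the 11, 9 fell (9.68%, beside 0.535% of all transcripts falling) and 2 rose (2.15%, beside 0.577% rising). The median change over the members was -0.0677, and -0.00917 over all transcripts. An unadjusted p under 0.05 was reached by 34 of the 93 members and by 1453 of all transcripts. The uncalled FBtr0091451 had 9.59 on day 5 and 10.20 on day 50 (limma adjusted p = 0.116).

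FBtr0075369 fell most after day 5. Its abdominal mean was 10.37 ± 0.780 on day 5, 8.94 on day 15, 8.57 on day 30 and 8.42 on day 50. The change from day 5 to day 50 was -1.94 ± 0.275 (standard error, SE), with a limma adjusted p of 0.00127 and a fall in 6 of 6 populations. FBtr0077060, the member with the slowest drop, went from 13.31 on day 1 to 11.93 on day 5, 10.58 on day 15 and 10.12 on day 50, a change after day 5 of -1.80 ± 0.193 (SE) with a limma adjusted p of 0.000133. For FBtr0077060 the highest day-50 abdomen, 11.40, lay at about the lowest of day 5, 11.39.

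FBtr0080350 fell by 1.47 (limma adjusted p = 5.7e-05) from 9.41 on day 5 to 7.94 on day 50, by which time the abdomen stood near the head, at 7.66. FBtr0076259 fell by 1.44 (limma adjusted p = 0.00278) and FBtr0076810 fell by 1.43 (limma adjusted p = 0.000914), both with a strong head signal. Smaller falls past the threshold were those of FBtr0075385 at -1.12, FBtr0112768 at -1.10, FBtr0076065 at -0.75 and FBtr0072150 at -0.64. All 9 fell in 6 of 6 populations. Each of the 9 had less than 90% of its drop complete on day 5, which the same values determine.

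Between day 5 and day 15 alone, 6 members fell (6.45%) and none rose, beside 0.547% of all transcripts changed, 0.475% falling and 0.0721% rising. All 6 were among the 9 that fell up to day 50. The changes were -1.36 in FBtr0076810, -1.34 in FBtr0077060, -1.20 in FBtr0076259, -1.17 in FBtr0080350 and -0.66 in FBtr0076065, each in 6 of 6 populations and with limma adjusted p-values from 0.00229 to 0.0223. In FBtr0075369 the change of -1.42 was shared by 5 of 6 populations (limma adjusted p = 0.0254). This count was 2 when control population 1 or selection population 1 was left out and 1 when selection population 3 was. The calls over all transcripts fell as well, from 91 to 11, 7 and 3. The median change over the members was -0.158 with all populations and -0.146, -0.148 and -0.153 with these left out.

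FBtr0112420 ran the other way. After dropping from 14.32 ± 0.515 on day 1 to 10.24 ± 0.382 on day 5, its abdominal mean was 10.26 on day 15, 10.63 on day 30 and 12.12 on day 50. The rise from day 5 was 1.88 ± 0.256 (SE), in 6 of 6 populations, with a limma adjusted p of 0.000914. On day 50 the 12 abdomens spread from 10.13 to 13.91 around a median of 11.95, and on day 5 from 9.47 to 11.05 around 10.19, so single arrays of the ages overlapped. FBtr0074827 rose by 0.72 (limma adjusted p = 0.00746), from 8.46 to 9.18, also in 6 of 6 populations. FBtr0112419, whose number precedes that of FBtr0112420, stayed at 8.15 on day 5 and 8.08 on day 50 in abdomen and 8.00 on day 50 in head.

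In heads 10 members changed from day 5 to day 50 (10.8%, beside 2.15% of all transcripts), of which 7 rose (7.53%, beside 1.25%) and 3 fell (3.23%, beside 0.902%). The 3 that fell in head had also fallen in abdomen. FBtr0075369 fell by 0.74 ± 0.0933 (SE; limma adjusted p = 0.000138), from 15.16 to 14.42, FBtr0076810 fell by 0.72 (limma adjusted p = 0.0115) and FBtr0077060 fell by 0.69 (limma adjusted p = 0.0103), each in 6 of 6 populations. Among the 7 that rose, FBtr0077008 rose by 1.07 (limma adjusted p = 0.00276), from 10.06 to 11.13, and FBtr0088135 by 1.00 (limma adjusted p = 0.0286), from 8.35 to 9.35. FBtr0073172 rose by 0.72, FBtr0075779 by 0.62, FBtr0088943 by 0.58, FBtr0071762 by 0.53 and FBtr0082966 by 0.45. None of the 7 passed the test in abdomen. Of the 7, only FBtr0088135 and FBtr0075779 passed the test of head minus abdomen given below. In the others that test gave limma adjusted p-values from 0.109 to 0.641, so a rise in head alone is not shown for them. Without the arrays of doubtful age the head count was 19 of 93, 14 of them rising, among 940 of all transcripts called. Leaving out selection population 2 or 3 gave 4 members (185 and 174 of all transcripts). Leaving out control population 1 or selection population 1 gave 5 (192 and 164). Leaving out control population 3 gave 6 (206) and control population 2 gave 9 (374), where all populations gave 358 of all transcripts.

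Whether the tissues aged differently was tested with head minus abdomen taken in each of the 6 populations. Between day 5 and day 50 this difference changed in 11 members (11.8%, beside 1.54% of all transcripts), upwards in 10 (10.8%, beside 0.799%) and downwards in 1 (1.08%, beside 0.745%). The largest upward changes were those of FBtr0080350 at 1.49 ± 0.174 (SE; limma adjusted p = 9.7e-05), FBtr0075369 at 1.20 (limma adjusted p = 0.0310) and FBtr0077060 at 1.12 (limma adjusted p = 0.00548). FBtr0075369 and FBtr0077060 fell in both tissues, and in FBtr0080350 the head mean was 7.64 on day 5 and 7.66 on day 50. The call of FBtr0075369 was lost when any population other than control population 2 was left out, and that of FBtr0077060 when control population 1 was. Another 4 members, at 0.90 to 1.06, had the same sign in 5 of 6 populations. FBtr0076065 at 0.79, FBtr0088135 at 0.69 and FBtr0075779 at 0.68 had it in 6 of 6. The call of FBtr0088135 was lost without any 1 of the 6 populations, and that of FBtr0075779 without control population 1 or any 1 of the selection populations. The downward change was that of FBtr0112420, at -1.59 ± 0.266 (SE; limma adjusted p = 0.00322), whose abdomen rose towards its head. The median over members was 0.25, and 0.00472 over all transcripts. Leaving out control population 1 gave 3 members (118 of all transcripts), and leaving out selection population 2 or 3 gave 4 (149 and 101). With all populations 257 of all transcripts were called. Without the arrays of doubtful age 16 members were called (486 of all transcripts).

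**Figure D4:**
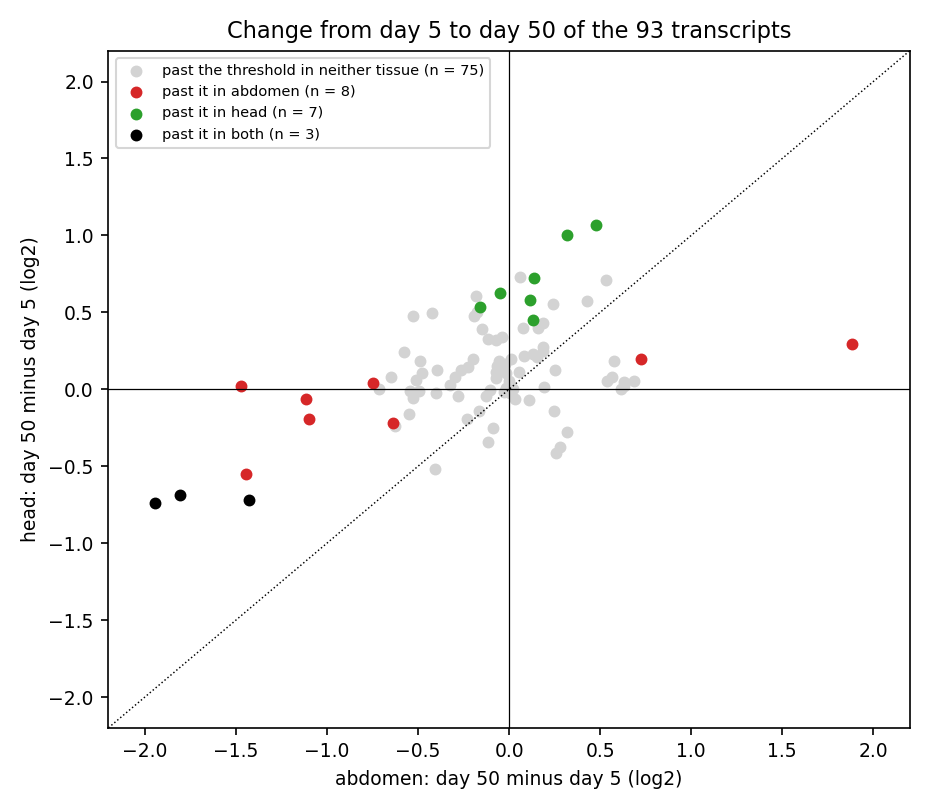
Change from day 5 to day 50 in head (vertical axis) against that in abdomen (horizontal axis), both in log2 units, for the 93 transcripts. Colours show in which tissue the change passed a limma adjusted p of 0.05 (3 in both, 8 in abdomen, 7 in head, 75 in neither) and the dotted line marks equal change; 3 transcripts fell in both tissues, and FBtr0112420, at the far right, rose by 1.88 in abdomen.

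Levels after the drop varied most, over the 48 later abdomens, in FBtr0112420 (SD over arrays 1.05), FBtr0075369 (0.967), FBtr0081004 (0.931) and FBtr0077060 (0.878). In 3 of these the spread went with age, as above. In FBtr0081004 it came from a few high arrays, on day 15 in control population 1 from both replicates. The 12 abdomens of day 5 lay between 7.89 and 8.47, while over days 5 to 50 the median was 8.20 and the highest array 11.47. A level above 9.5, set after the values were seen, was passed by 7 of the 48 later abdomens, all from control population 1, selection population 1 or selection population 3.

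FBtr0081004 was also uneven in heads, where its median after day 1 was 8.41 and its highest array 13.54, and 13 of 48 later heads passed 9.5. On day 15 both abdomens of control population 1 were high, at 10.69 and 9.84, and so were its day-15 heads, at 12.23 and 13.08. In selection population 1 the high abdomens were 11.47 on day 15 and 11.04 on day 30, with heads from 11.52 to 12.19 and from 11.75 to 11.95 on those days. In selection population 3 an abdomen of day 50 stood at 11.07 while both heads of that day were at 8.50 and 8.64. FBtr0081003, which carries the preceding number, had a median of 8.28 over later abdomens. It lay between 9.05 and 10.24 in 5 of the 7 abdomens in which FBtr0081004 was high, and at 8.27 and 8.31 in the remaining ones.

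The breeding regime was compared over 3 selection against 3 control populations. No member and no transcript passed an adjusted p of 0.05 by limma in any of the 4 regime comparisons (0% called in each). These were later abdomens, later heads, abdomens of day 1 and the drop in abdomen. In later heads the lowest limma adjusted p over all transcripts was 0.143. With population number as a block it was 0.0518, close to the threshold. At an unadjusted p under 0.05 there were 2 members of 93 in later abdomens (189 of all transcripts), 21 in later heads (3527), 5 in abdomens of day 1 (455) and 6 in the drop (413). These unadjusted counts moved with single populations. For day 1 they were 13, 15 and 18 members without control population 1, 2 and 3 (609, 1278 and 713 of all transcripts). Without selection population 2 they were 2 (408). For the drop, leaving out control population 2 gave 17 (2164), selection population 3 gave 3 (133) and selection population 2 gave 1 (233). For later abdomens they were 4 without control population 1 (259) or selection population 2 (201), and 1 without selection population 1 (116). The counts over all transcripts, in brackets, thus moved as well.

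In later abdomens the median regime difference of the members was 0.0025, and 47 of 93 were higher in selection. FBtr0080729 had 8.81 ± 0.165 (SD, n = 3) in selection and 8.46 ± 0.126 in control, and FBtr0077550 10.89 ± 0.461 and 10.41 ± 0.282. The difference, selection minus control, was -0.17 in FBtr0076065 and -0.16 in FBtr0083331. None of these 4 passed the test (limma adjusted p = 1.00 for each).

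In later heads FBtr0080691 stood at 9.20 ± 0.120 in selection and 9.99 ± 0.239 in control. The difference was -0.79 ± 0.133 (SE) with a limma adjusted p of 0.143. FBtr0077060 differed by -0.32 (limma adjusted p = 0.145), FBtr0081222 by 0.31 (limma adjusted p = 0.148) and FBtr0084689 by 0.32 (limma adjusted p = 0.150). These members were named for the smallest p in each direction, and none passed the test over all transcripts.

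On day 1 the members as a whole were higher in selection abdomens, in 80 of 93 and by a median of 0.37, and this came with 1 population. Without control population 1 the median was -0.00797 and 45 of 93 were higher. For the drop, the later level minus that of day 1, the median of selection minus control was -0.35, and 0.0308 without control population 1. FBtr0076453, at 14.10 ± 0.249 (SD, n = 3) in selection and 13.31 ± 0.319 in control, and FBtr0081314, at 11.55 ± 0.161 and 10.90 ± 0.273, had the smallest p for day 1 among members higher in selection. The difference was -0.36 in FBtr0077060 and -0.29 in FBtr0075385. The drop of FBtr0077060 was -2.24 in selection and -2.92 in control, and that of FBtr0081314 was -3.58 and -2.91. None of these passed (limma adjusted p = 1.00 for each).

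The day-1 abdomens of control population 1 were examined member by member. There the member median was 11.6, where the other 5 populations lay between 12.63 and 12.81. With the mean of days 15 to 50 set to 0% and the day-1 height in the other 5 populations to 100%, a median of 61.2% of the height was left. More than 75% was left in 30 members, between 25% and 75% in 50 and less than 25% in 13. The other 225 transcripts past the abdominal threshold had a median of 60.8%, so the members did not stand apart from them in this.

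Members differed widely in the share of the height measured in that population. FBtr0077060 had 118% left, FBtr0075369 106% and FBtr0075385 103%, while FBtr0088943 had 1.64% and FBtr0080729 -4.52%. FBtr0083331, with 20.9%, stood at 9.37 there and between 12.53 and 13.54 in the other populations. The same transcripts could be read on day 5 in the other 5 populations, where a median of 3.30% of the height was left. In the 27 members with more than 10% left on day 5, the median left in control population 1 on day 1 was 83.8%, and in the 66 others it was 55.6%. Across the 93 members the 2 shares had a Pearson r of 0.465 and a Spearman rho of 0.477, given as a description, since members share arrays and both shares were divided by the same height.

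**Figure D5:**
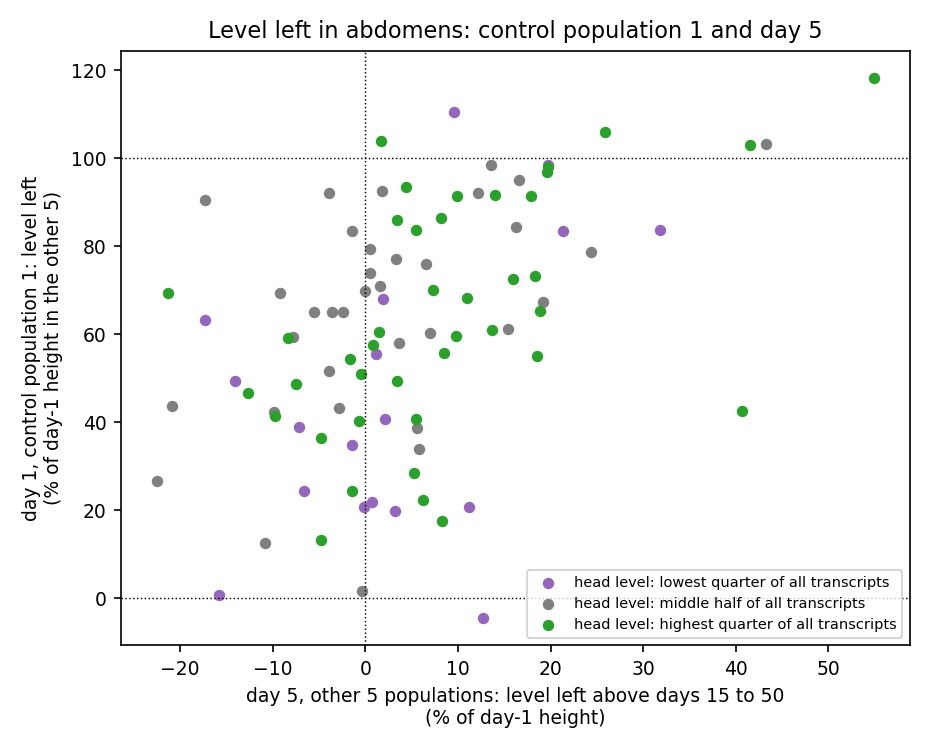
Share of the day-1 height left in day-1 abdomens of control population 1 (vertical axis, %) against the share left on day 5 in the other 5 populations (horizontal axis, %), for the 93 transcripts coloured by head level. Dotted lines mark 0% and 100%; FBtr0077060, at the upper right, had 118% and 54.9% left, and members with over 10% left on day 5 had a median of 83.8% left in control population 1.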

How the data were processed

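The authors deposited 1 log2 intensity per transcript and array, made with RMA (background correction, quantile normalization and probe summary), per the submitters' processing notes; which RMA version, genome build and annotation release were used, and which arrays were normalized together, is not given in the sources used here. Quantile normalization gives arrays alike distributions, so levels are relative to the other transcripts of an array, and arrays have no read depth: their number limits the precision. Groups came from the labels, with 120 arrays in 20 groups. The title of 1 day-15 head of control population 3 gives replicate 3 where its other label gives 1, and that label was used.

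The 93 members, the lists and the tests were chosen with earlier results of these data known. The contrast of day 1 with later days in either tissue chose the members and was given no test. The 2 biological replicates were averaged within each population and day. With limma 3.58.1 in R 4.3.3 (moderated variance with an intensity trend, two-sided tests, Benjamini-Hochberg adjustment over all 16637 transcripts, threshold 0.05), contrasts among days 5 to 50 were fitted over 24 averages per tissue with population as a block, tissue differences on head minus abdomen, and regimes over 3 against 3 populations. The labels describe independent pairs of selection and control populations. Deviations of populations with the same number correlated from 0.174 to 0.517 in later heads, at 0.0143, 0.260 and 0.526 in later abdomens, between 0.0697 and 0.0844 in abdomens of day 1 and from -0.121 to 0.214 for the drop, so every pair passed 0.1 in later heads alone, and the pairing was used as an alternative throughout. The fits were run on simulated population averages with known changes and independent normal errors. Errors of single arrays or labels were not part of this, and the recovery is not reported here. No 2 arrays held identical values, and nothing in the labels says how the biological replicates were separated.

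Named members are the 8 with the lowest abdominal D, those next to the thresholds, up to 6 each way per comparison past the threshold and alike in sign in every population, taken by size of change (where none passed, 2 each way with the smallest p), the 3 highest and lowest in head and the 4 most variable in later abdomens. FBtr0072150, FBtr0082966, FBtr0080615 and FBtr0089056, which complete counts, and FBtr0081003 and FBtr0112419, as neighbours in number, were named after their values were seen. The gene table from RefSeq, whose assembly is Release 6 plus ISO1 MT, joined no member to a gene, so the pathway and cell type lists set up for this work could not be read, and no sequence is printed. Alternatives were another normalization, a filter on dim transcripts, no trend, single replicates, single populations left out, arrays of doubtful age left out and other forms of the rule. Figures and tables used Python 3.11.15 with pandas 2.3.3 and matplotlib 3.10.9.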

Additional observations from a re-analysis of the deposited data

Results flagged for a closer look

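Within groups of 6 arrays of 1 tissue, regime and age, the highest or lowest array was compared with the gap to its neighbour (Dixon's criterion), for the member median in 20 groups and for the 8 members with the lowest D in abdomens, 100 sets of 6 in all. The gap passed the limit in 10, and chance passes it in about 1 of 20 sets of independent values. The 6 arrays come from 3 populations with 2 replicates each and the sets share arrays, so this rate does not hold exactly here. The member median stood high in an abdomen of selection population 2 on day 15 (9.94, others 9.42 to 9.61) and low in a head of selection population 2 on day 50 (11.04, others 11.35 to 11.50).

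An abdomen of control population 2 on day 15 stood high in 3 of the 8 members, with 9.09 for FBtr0071389 (others 8.12 to 8.36), 10.64 for FBtr0073928 (others 8.37 to 9.21) and 9.49 for FBtr0077549 (others 8.47 to 8.57). An abdomen of selection population 3 on day 1 stood low, with 11.51 for FBtr0071389 (others 13.76 to 14.53) and 12.93 for FBtr0080691 (others 13.83 to 14.35). Single values also stood apart for FBtr0073928 in a day-1 abdomen of control population 1 (12.77, others 13.60 to 13.90), for FBtr0077549 in a day-15 abdomen of selection population 3 (9.11, others 8.20 to 8.37) and for FBtr0071389 in a day-50 abdomen of control population 3 (8.77, others 8.33 to 8.50).

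The change from day 5 to day 50 differed between head and abdomen in 11 members by the limma test of that difference. Head minus abdomen changed by -1.59 in FBtr0112420. It changed by 1.49 in FBtr0080350, 1.20 in FBtr0075369, 1.12 in FBtr0077060, 1.06 in FBtr0075385, 1.00 in FBtr0089056, 0.92 in FBtr0080615, 0.90 in FBtr0076259, 0.79 in FBtr0076065, 0.69 in FBtr0088135 and 0.68 in FBtr0075779. In FBtr0075385, FBtr0089056, FBtr0080615 and FBtr0076259 the sign held in 5 of 6 populations, and in the other 7 in 6 of 6.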

How the results depend on the processing

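All values in this paragraph are counts of members unless stated. With only the 8318 transcripts above the median level tested, fewer members were left to test. Of these, 2 of 22 changed from day 5 to 50 in abdomen and 1 of 22 from day 5 to 15. In head 5 of 58 changed, and between the tissues 6 of 51. Over all transcripts tested the calls were 82, 76, 151 and 88, in that order. With biological replicate 2 alone, 2 changed from day 5 to 15, 3 in head and 4 between the tissues (3, 260 and 95 of all transcripts). With replicate 1 alone the counts were 0 in head (46 of all transcripts called) and 1 between the tissues (19). Without the arrays of doubtful age 19 changed in head (940 of all transcripts) and 16 between the tissues (486). With no replicate block for population, 7 differed between the tissues (187). Leaving out 1 population at a time gave 8 to 10 for day 5 to 50 in abdomen, 1 to 6 for day 5 to 15, 4 to 9 in head and 3 to 10 between the tissues. Over all transcripts the same settings gave 60 to 168 (185 with all populations), 3 to 82 (91), 164 to 374 (358) and 101 to 213 (257). The rule found 144 transcripts in control arrays alone, 217 at an abdominal threshold of -2, 34 at -3 and 60 at a head threshold of 0.25, and 76 to 97 with 1 population left out. The regime comparisons called 0 members under every alternative run, the replicate block of population number included. FBtr0081314 had a regime difference in the drop of 0.0046 with biological replicate 2 alone, the opposite sign to all arrays. FBtr0080350, FBtr0112420, FBtr0077060, FBtr0075369, FBtr0076259 and FBtr0076810 kept their call for day 5 to 50 in abdomen under every alternative in which they were tested. Calls lost in more alternatives than not were the tissue differences of FBtr0088135 (13 of 14), FBtr0075369 (8 of 15, values 0.70 to 1.70) and FBtr0075779 (8 of 14) and the rises in head of FBtr0071762 (13 of 15) and FBtr0075779 (9 of 14). Calls were also lost in 7 of 15 for the rise of FBtr0073172 in head, in 7 of 14 for that of FBtr0088135 in head and the fall of FBtr0076259 from day 5 to 15, and in 6 of 14 for FBtr0088943 in head and FBtr0075385 in abdomen. With the replicate block of population number, an unadjusted regime p under 0.05 was reached by 5 members in later abdomens (324 of all transcripts). It was reached by 30 in later heads (5194), 11 on day 1 (483) and 11 for the drop (472). The cause of these shifts was not tested.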
